A study of Mus musculus with 12 samples.

Results

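The 41 genes described here make, remodel, store, release and burn fatty acids, or coat the droplets in which cells keep them. They were chosen by name, as a list of fatty acid synthesis, oxidation, storage and lipolysis genes, by a rule that uses no measured value but was written with earlier results of these data known. All 41 were found by their Ensembl gene identifiers among the 41388 genes of the count tables, and all 41 passed the filter on low counts that left 13030 genes for testing. RNA was sequenced from C57BL/6 mouse bone marrow grown in culture, in 12 libraries of 4 groups with 3 libraries each.

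KO_OC cells came from mice positive for LysM Cre, a recombinase expressed from the lysozyme locus Lyz2 in myeloid cells, and had been given M-CSF and RANKL. Asxl2, the floxed gene, encodes a Polycomb group protein that acts on chromatin. flox_OC cells came from mice labelled Flox and received the same 2 cytokines. KO_BMM and flox_BMM cells were the same genotypes kept in M-CSF alone. All 4 groups had grown for 5 days in medium with 10% serum before replating, and stayed for 2 more days in 2% M-CSF, without RANKL or with 50 ng/ml of it. M-CSF maintains macrophages, and RANKL drives them to become osteoclasts, the cells that resorb bone. No group combined LysM Cre with intact Asxl2, so an effect of Cre or of the Lyz2 allele cannot be told apart from deletion of Asxl2. The labels call these cells KO and do not say whether the mice carried the floxed allele on both chromosomes. Whether the 3 libraries of a group are from different mice or culture dishes is not stated in the labels, which also give no age or sex. The p-values therefore rest on the scatter among these libraries alone, and that scatter may be technical.

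Libraries held 18489873 to 21667237 counts. Asxl2 stood at 15.1, 12.7 and 13.4 CPM (counts scaled to the library size and TMM factor of each library) in KO_OC against 75.6, 73.6 and 71.0 CPM in flox_OC, and at 14.9, 14.9 and 15.4 CPM in KO_BMM against 95.6, 94.0 and 89.7 CPM in flox_BMM. Every KO library lay below every flox library, with part of the signal remaining. The 10 listed osteoclast markers summed to 379 to 396 CPM in KO_OC and 743 to 765 CPM in flox_OC, against 206 to 209.9 CPM in KO_BMM and 234 to 243 CPM in flox_BMM. The macrophage markers summed to 16320 to 16549 CPM in KO_OC, 15448 to 15856 CPM in flox_OC, 28279 to 29015 CPM in KO_BMM and 31960 to 32920 CPM in flox_BMM. The 4 ranges of each list did not overlap, so both sums moved with RANKL and with genotype. By gene, the 8 macrophage markers, which include Lyz2, had mixed directions. Called in KO_BMM were 2 higher and 6 lower than in flox_BMM, and in KO_OC 3 higher and 3 lower than in flox_OC. Of all genes tested, 39.9% were called by genotype in BMM and 41.3% in OC. Of 12 stromal markers, 7 could be tested and all 7 were lower in KO in both cultures, with sums of 43.5 to 54.6 CPM in KO_OC, 146 to 149.97 CPM in flox_OC, 54.6 to 61.7 CPM in KO_BMM and 174 to 191 CPM in flox_BMM. Megakaryocyte markers summed to 16.3 to 17.5 CPM in KO_OC, 135 to 141 CPM in flox_OC, 48.5 to 53.1 CPM in KO_BMM and 344 to 409 CPM in flox_BMM. Neutrophil markers summed to 3.46 to 3.996 CPM in KO_OC, 6.12 to 7.58 CPM in flox_OC, 3.995 to 5.05 CPM in KO_BMM and 7.96 to 9.30 CPM in flox_BMM, and 3 of the 4 tested were lower in KO in each culture. Endothelial markers summed to 13.6 to 15.1 CPM in KO_OC, 23.9996 to 24.7 CPM in flox_OC, 24.1 to 26.1 CPM in KO_BMM and 35.1 to 39.8 CPM in flox_BMM, and 1 of the 2 tested was lower in KO in each culture. The part of these lists in the differences reported here was not tested. The 7 adipocyte markers summed to at most 0.0495 CPM in any library, and Plin1, Lep, Cidec and Cfd had no read in any library.

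Fatty acids reach a macrophage from lipoproteins, from engulfed material broken down in lysosomes, or from synthesis out of citrate. An acyl-CoA synthetase activates each fatty acid, after which it can be desaturated and elongated, esterified to triglyceride and stored in a droplet, or carried into mitochondria on carnitine and oxidized. Macrophages are known for taking up lipoprotein lipid and for storing it as droplets, the hallmark of foam cells, and osteoclasts are known for dense mitochondria. Each of these steps is represented among the 41 genes.

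Start sites of 33 of the 41 genes were found in the RefSeq promoter table (build GRCm38.p6), which gives 250 bases before and 50 bases after each start. The first window listed for each gene was used, and it need not sit at the start of the gene as counted. On the minus strand, the counted Fasn gene starts at 120824178, outside its window. The counted Lpin2 gene starts at 71182560, upstream of its window. Among windows not printed, those of Gpam and Lpin1 lie upstream of the counted genes, and those of Acaca and Acacb inside them. The 6 windows below belong to genes with some of the clearest differences described further on: Acsl1 and Fasn were higher with RANKL in both genotypes, and Apoe, Lpin2, Plin2 and Cpt1a were lower. Capitals mark every match, on either strand, to a CCAAT box, to the E-box CACGTG, to the nuclear receptor hexamer AGGTCA, to the cyclic AMP element TGACGTCA or to the sterol element TCACCCCAC. The windows run 5′ to 3′ in the gene's direction and lie at chr8:46470787-46471086 on the plus strand for Acsl1, chr11:120824498-120824797 on the minus strand for Fasn, chr7:19699139-19699438 on the minus strand for Apoe, chr17:71183282-71183581 on the plus strand for Lpin2, chr4:86670010-86670309 on the minus strand for Plin2 and chr19:3323051-3323350 on the plus strand for Cpt1a.
Acsl1: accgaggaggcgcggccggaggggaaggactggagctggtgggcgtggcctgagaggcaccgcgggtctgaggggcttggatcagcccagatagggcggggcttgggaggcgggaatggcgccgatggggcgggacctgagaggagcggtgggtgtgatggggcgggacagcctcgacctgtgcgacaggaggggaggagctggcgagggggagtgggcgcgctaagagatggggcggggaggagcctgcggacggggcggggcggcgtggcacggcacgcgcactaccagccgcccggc
Fasn: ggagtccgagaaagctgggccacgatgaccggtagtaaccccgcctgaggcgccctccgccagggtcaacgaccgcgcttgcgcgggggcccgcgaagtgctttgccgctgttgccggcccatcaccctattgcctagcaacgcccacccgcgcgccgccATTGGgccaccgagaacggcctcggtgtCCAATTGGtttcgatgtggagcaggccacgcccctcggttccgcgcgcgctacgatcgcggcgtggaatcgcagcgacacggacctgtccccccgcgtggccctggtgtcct
Apoe: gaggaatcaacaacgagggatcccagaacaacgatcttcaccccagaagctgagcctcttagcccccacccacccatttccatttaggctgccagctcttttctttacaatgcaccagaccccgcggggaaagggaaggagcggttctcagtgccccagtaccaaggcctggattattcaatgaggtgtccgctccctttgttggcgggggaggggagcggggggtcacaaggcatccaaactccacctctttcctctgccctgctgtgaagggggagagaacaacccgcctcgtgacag
Lpin2: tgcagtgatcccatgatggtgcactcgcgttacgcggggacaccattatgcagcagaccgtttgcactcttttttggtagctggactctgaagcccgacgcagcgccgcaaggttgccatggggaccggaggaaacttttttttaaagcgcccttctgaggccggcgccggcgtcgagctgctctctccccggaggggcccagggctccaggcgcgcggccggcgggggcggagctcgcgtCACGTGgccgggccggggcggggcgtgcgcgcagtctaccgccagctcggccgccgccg
Plin2: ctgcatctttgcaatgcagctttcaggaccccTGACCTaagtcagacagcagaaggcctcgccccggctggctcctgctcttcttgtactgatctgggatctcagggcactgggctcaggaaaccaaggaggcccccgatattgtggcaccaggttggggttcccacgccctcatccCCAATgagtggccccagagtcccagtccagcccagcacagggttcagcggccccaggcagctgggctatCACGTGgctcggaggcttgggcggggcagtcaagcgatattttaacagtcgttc
Cpt1a: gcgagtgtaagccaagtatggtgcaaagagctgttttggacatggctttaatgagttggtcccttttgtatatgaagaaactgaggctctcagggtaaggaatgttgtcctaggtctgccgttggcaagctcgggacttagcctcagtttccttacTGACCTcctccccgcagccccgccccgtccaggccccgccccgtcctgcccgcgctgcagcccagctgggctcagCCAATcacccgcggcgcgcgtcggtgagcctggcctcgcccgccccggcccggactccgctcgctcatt

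The Acsl1 and Apoe windows held none of these letters. The Fasn window held 3 CCAAT matches, of which a pair overlap as CCAATTGG, and the Plin2 window held a CCAAT box, an E-box and an AGGTCA hexamer. The E-box of Lpin2 began 9 bases before the start site. Cpt1a had a CCAAT box that began 19 bases before the start site and an AGGTCA hexamer that began 94 bases before it. Over the 33 windows, CCAAT was found in 14 (42.4%, against 37.9% of all 27025 windows in the table), AGGTCA in 8 (24.2% against 16%) and CACGTG in 5 (15.2% against 7.24%). TGACGTCA occurred in 1 window, that of Elovl5 (3.03% against 1.88%), and TCACCCCAC in none (against 0.522%). No direct repeat of AGGTCA with a spacing of 1 or 4 bases was found. These matches describe letters in the windows only.

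The 41 genes took 0.909% to 0.916% of all counts in KO_OC libraries and 1.03% to 1.04% in flox_OC libraries, against 0.964% to 0.968% in KO_BMM libraries and 1.16% to 1.18% in flox_BMM libraries. These 4 ranges did not overlap. Apoe and Lpl carried much of that sum. Apoe made up 8.51% to 8.88% of the members' CPM in KO_OC, 11.7% to 12.4% in flox_OC, 21.1% to 21.8% in KO_BMM and 22.2% to 24.4% in flox_BMM. Lpl made up 32.9% to 33.3% in KO_OC and 38.1% to 38.7% in flox_OC, against 21.2% to 22.6% in KO_BMM and 26.2% to 27.8% in flox_BMM. Without these 2 genes the members summed to 5005 to 5082 CPM in KO_OC and 4851 to 4890.4 CPM in flox_OC, against 5680 to 5723 CPM in KO_BMM and 6136 to 6246 CPM in flox_BMM. The order of the OC genotypes in that sum rests on Lipa. With Lipa left out too, the sums were 3605 to 3656 CPM in KO_OC and 3651 to 3669 CPM in flox_OC, which overlap, against 3689 to 3731 CPM in KO_BMM and 3853 to 4050.2 CPM in flox_BMM, which do not.

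Per kilobase of exon, Lipa was the highest member in KO_OC at 476 ± 4.28 CPM per kb, followed by Lpl at 421 ± 5.43 and Apoe at 378 ± 6.37 (mean ± SD, n = 3). In flox_OC the order was Apoe at 599 ± 17.1, Lpl at 554 ± 7.62 and Lipa at 409 ± 4.48 CPM per kb. Both BMM groups ran Apoe, Lipa, Lpl, with 1094 ± 18.1, 671 ± 0.715 and 322 ± 11.2 CPM per kb in KO_BMM and 1478 ± 70.4, 752 ± 15.3 and 492 ± 14.9 CPM per kb in flox_BMM. These neighbours stood further apart than their SDs in every group. Mgll and Acacb were the lowest members per kilobase in every group, at 0.0967 ± 0.0278 and 0.123 ± 0.0276 CPM per kb in KO_OC and 0.136 ± 0.0700 and 0.0745 ± 0.0083 CPM per kb in flox_OC. In BMM they stood at 0.109 ± 0.0440 and 0.216 ± 0.0203 CPM per kb in KO_BMM, and at 0.224 ± 0.0893 and 0.169 ± 0.0128 CPM per kb in flox_BMM. The SD of Mgll exceeded the gap between the pair in every group but KO_BMM.

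**Figure D1:**
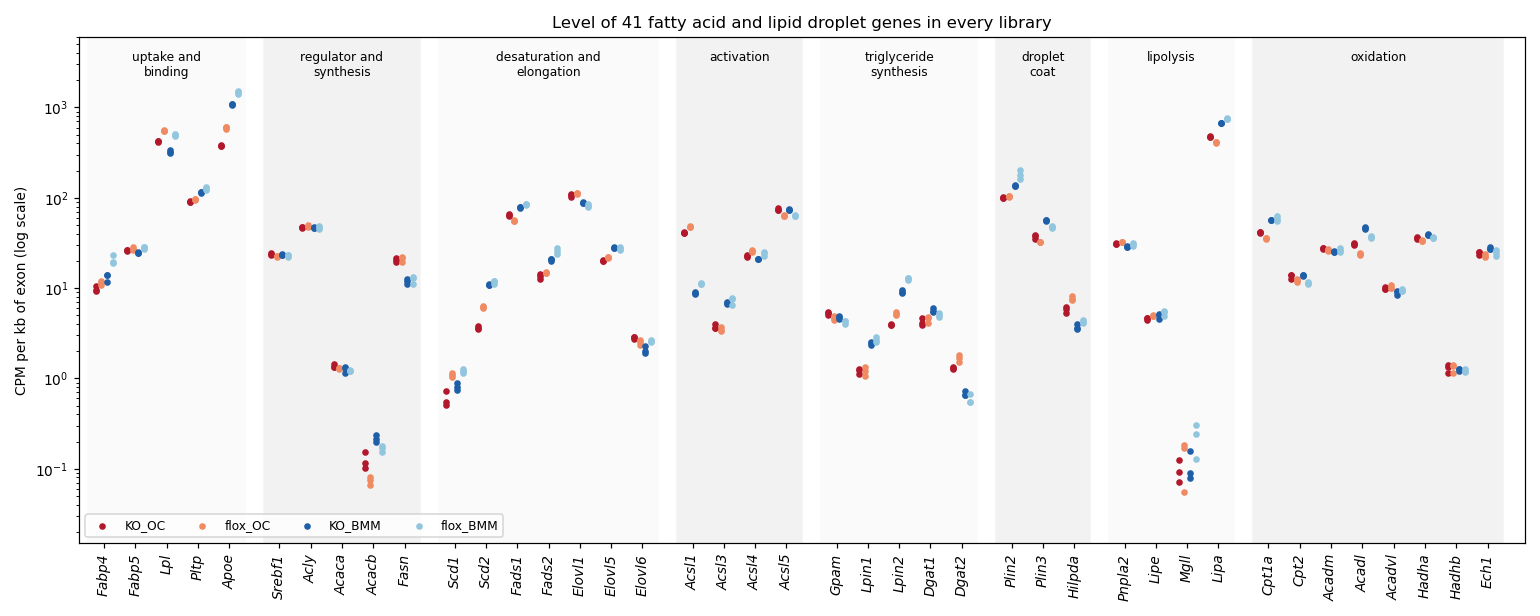
Level of each of the 41 genes in every library, in CPM per kb of exon on a log axis, with genes grouped by role and a point for each of the 3 libraries of KO_OC, flox_OC, KO_BMM and flox_BMM. Apoe, Lpl and Lipa stand highest, Mgll and Acacb lowest, and Acsl1 has its OC points well above its BMM points.

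Genotype differences were common among these genes and mostly small. With RANKL, 11 of 41 members were called higher and 11 lower in KO_OC than in flox_OC by edgeR's quasi-likelihood test at a Benjamini-Hochberg adjusted p under 0.05. That is 53.7% of the members, beside 41.3% of all genes tested (21.4% higher and 19.9% lower). In M-CSF alone, 8 were higher and 15 lower in KO_BMM than in flox_BMM, 56.1% of the members beside 39.9% of all genes tested (19.3% higher and 20.6% lower). The median log2 fold change of the members was -0.04 in OC and -0.09 in BMM, beside 0.01 and 0.00 over all genes tested. By size the members did not stand out. A change past 2-fold was called for 0 members in OC and 1 in BMM, 0% and 2.44%, beside 4.22% and 4.21% of all genes. The median absolute log2 fold change was 0.16 in OC and 0.165 in BMM, beside 0.141 and 0.137 over all genes. In bulk RNA, fewer cells of a type and less RNA per cell cannot be told apart, here and in all that follows.

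Lpl, Apoe, Pltp, Scd1, Acsl1, Acsl4 and Lpin2 were lower in KO in both cultures, and Plin3, Acsl5, Gpam, Cpt2, Acadl and Hadha were higher in both. The 13 are 31.7% of the members, beside 21.9% of all genes tested that were called in the same direction in both cultures. These comparisons share no library, but both come from 1 fit over all 12 libraries. Whether BMM and OC libraries of a genotype came from the same mice is not known here. Lipa and Fads1 were called in opposite directions, higher in KO_OC and lower in KO_BMM. They are 4.88% of the members, beside 2.41% of all genes tested that were called in opposite directions. A further 7 genes were called by genotype in OC alone and 8 in BMM alone, and 11 in neither. By role, all 5 uptake and binding genes were lower in KO_BMM, and 3 of the 5 in KO_OC, beside 20.6% and 19.9% of all genes tested. Another 5 uptake genes outside the members were mixed, with 1 higher and 2 lower in KO_BMM, and 1 higher and 1 lower in KO_OC. Of the 8 oxidation genes, 4 were higher and none was lower in each culture, beside 21.4% of all genes tested that were higher in KO_OC and 19.3% in KO_BMM. By DESeq2, 7 members rather than 11 were called higher in KO_OC.

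**Figure D2:**
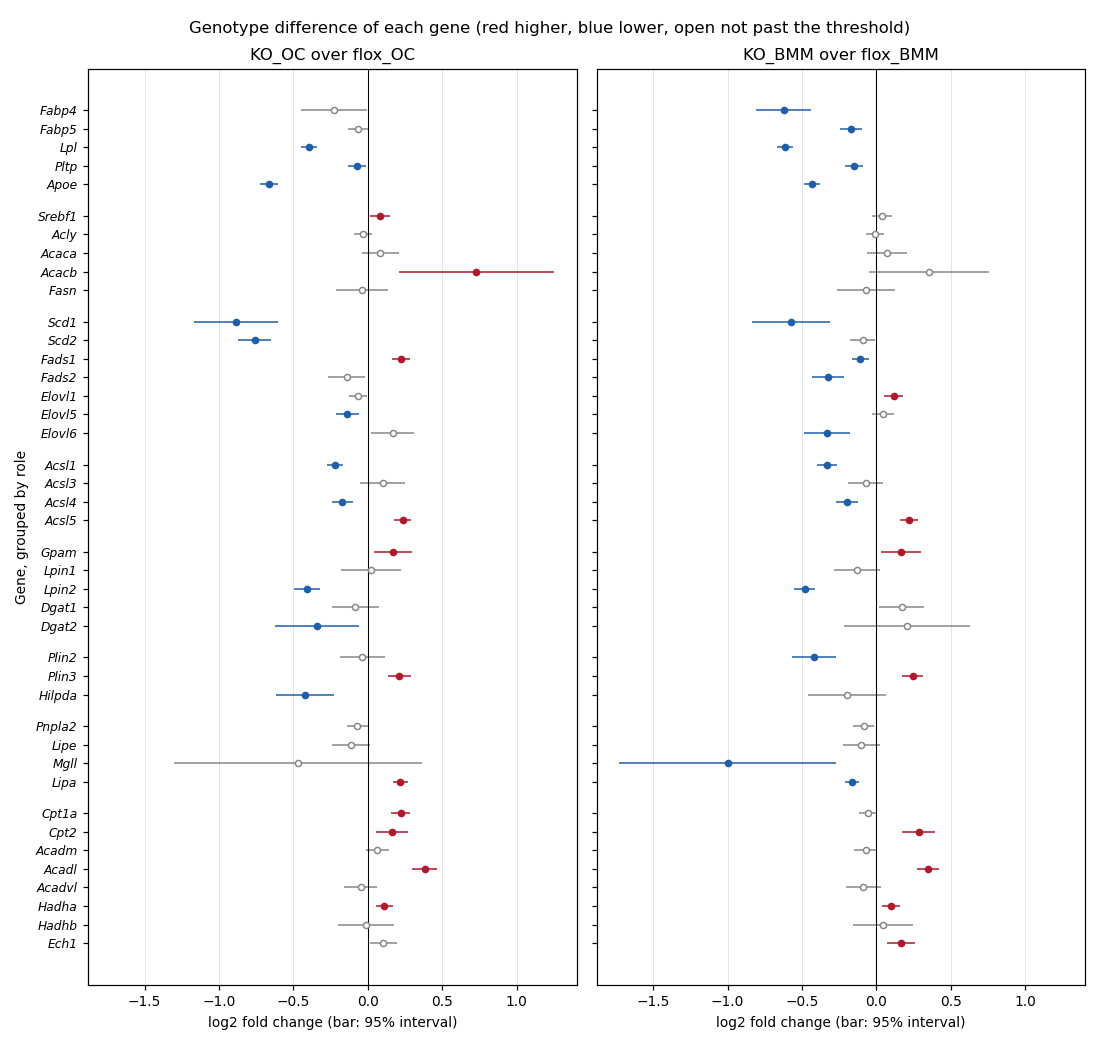
log2 fold change of each gene between genotypes, KO_OC over flox_OC on the left and KO_BMM over flox_BMM on the right, with bars for the 95% interval. Red points are higher and blue points lower in KO at an adjusted p under 0.05, and open points did not pass. Scd1 and Scd2 lie furthest left among the called genes in OC, and most oxidation genes at the foot of the plot lie at or to the right of 0.

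RANKL moved more of these genes than genotype did. In KO cells, 13 members were higher and 20 lower in KO_OC than in KO_BMM, 80.5% of the members beside 70.5% of all genes tested (35.5% higher and 35.0% lower). In flox cells, 9 were higher and 18 lower in flox_OC than in flox_BMM, 65.9% beside 74.8% (37.0% higher and 37.8% lower). The share of members called thus lay above that of all genes in KO cells and below it in flox cells. By direction, the members leaned to lower values. Lower members made up 48.8% in KO cells beside 35.0% of all genes, and 43.9% in flox cells beside 37.8%. Higher members made up 31.7% in KO cells beside 35.5% of all genes, and 9 of 41 in flox cells beside 37.0%. Called changes had the same direction in both genotypes for 27 genes, 9 higher (Lpl, Pnpla2, Fasn, Elovl1, Acsl1, Acsl4, Acadvl, Dgat2 and Hilpda) and 18 lower, and in opposite directions for none. That is 65.9% of the members, beside 62.3% of all genes tested, of which 0.767% were called in opposite directions. A change past 2-fold was called for 5 members in KO cells and for 7 in flox cells, 12.2% and 17.1% of the members, beside 13.9% and 17.4% of all genes tested. The median log2 fold change was -0.12 in KO cells and -0.11 in flox cells, beside 0.00 for all genes in each. Scaling by library size alone puts the median of all genes at 0.14 in KO cells and 0.17 in flox cells, and turns the members' median to 0.02 and 0.06, so changes with RANKL are given relative to the TMM scale, on which it is 0.00. Under that scaling the called genes split into 5970 higher and 3431 lower in KO cells, against 4627 and 4555 with TMM, and into 6320 and 3737 in flox cells, against 4822 and 4925 with TMM, and 18 members rather than 9 were higher in flox cells. For KO_BMM over flox_BMM the split was 3334 higher and 2228 lower, against 2513 and 2690 with TMM.

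Among the proteins that bring lipid to the cell, Lpl is the lipoprotein lipase that frees fatty acids from circulating triglyceride. Lpl measured 2889.7, 2823 and 2885 CPM in KO_OC against 3739.9, 3751 and 3835 CPM in flox_OC, and 2129, 2275 and 2166 CPM in KO_BMM against 3462, 3336 and 3261 CPM in flox_BMM. All KO libraries lay below all flox libraries of the same culture, and all OC libraries above all BMM libraries of the same genotype. Lpl was 1.32-fold lower in KO_OC (log2 fold change -0.40, SE 0.026, adjusted p = 8.68e-18) and 1.53-fold lower in KO_BMM (log2 fold change -0.61, SE 0.026, adjusted p = 1.02e-24). It was higher with RANKL in KO cells (log2 fold change 0.39, SE 0.026, adjusted p = 3.06e-18) and in flox cells (log2 fold change 0.17, SE 0.026, adjusted p = 1.04e-07). That gain was larger in KO cells (difference of log2 fold changes 0.22, SE 0.037, adjusted p = 1.01e-05).

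Apoe is the lipoprotein component through which cells take up and export lipid. It measured 741, 763 and 741 CPM in KO_OC against 1214, 1148 and 1198 CPM in flox_OC, and 2189, 2125 and 2185 CPM in KO_BMM against 2768, 2976 and 3033 CPM in flox_BMM. No library of any group overlapped another group, and the order ran KO_OC lowest and flox_BMM highest. Apoe was 1.59-fold lower in KO_OC (log2 fold change -0.67, SE 0.029, adjusted p = 3.60e-24) and 1.35-fold lower in KO_BMM (log2 fold change -0.43, SE 0.028, adjusted p = 1.07e-17). With RANKL it fell 2.9-fold in KO cells (log2 fold change -1.53, SE 0.029, adjusted p = 1.36e-39) and 2.47-fold in flox cells (log2 fold change -1.30, SE 0.029, adjusted p = 3.95e-37). Its RANKL effect was lower in KO cells (difference of log2 fold changes -0.23, SE 0.04, adjusted p = 1.36e-05).

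Fabp4 and Fabp5 are cytosolic carriers that bind fatty acids inside the cell. Fabp4, known as an adipocyte and macrophage marker, was a low gene here, with 5.89, 6.73 and 6.02 CPM in KO_OC against 6.81, 7.46 and 7.65 CPM in flox_OC, and 7.49, 8.95 and 8.91 CPM in KO_BMM against 12.4, 12.2 and 14.7 CPM in flox_BMM. The flox_BMM libraries stood above all others, and neither genotype pair overlapped. It fell 1.54-fold in KO_BMM (log2 fold change -0.62, SE 0.091, adjusted p = 1.55e-07), while the KO_OC difference did not pass (log2 fold change -0.23, 95% interval -0.45 to -0.01, adjusted p = 0.0819). RANKL lowered it in KO cells (log2 fold change -0.45, SE 0.1, adjusted p = 1.92e-04) and in flox cells (log2 fold change -0.84, SE 0.093, adjusted p = 2.76e-11). The difference of 0.39 between those effects (adjusted p = 0.0388) was no longer called with library size alone or DESeq2, or without flox_BMM replicate 3, KO_BMM replicate 1, flox_OC replicate 1, flox_OC replicate 2, KO_OC replicate 2 and KO_OC replicate 3, each in turn (0.29 to 0.42). Fabp5 averaged 93.5 ± 1.87 CPM in KO_OC and 97.8 ± 3.35 CPM in flox_OC, against 88.6 ± 0.873 CPM in KO_BMM and 99.8 ± 2.96 CPM in flox_BMM. It was lower in KO_BMM (log2 fold change -0.17, SE 0.036, adjusted p = 1.07e-04) and did not pass in KO_OC (-0.06). Its small rise with RANKL in KO cells (0.08, adjusted p = 0.0456) was lost with RLE size factors, DESeq2 or no low-count filter, and without each of the 12 libraries in turn (0.06 to 0.09). Close copies elsewhere cover 41.3% of the Fabp5 transcript, so its level is uncertain.

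Pltp, which transfers phospholipid between lipoproteins, averaged 232 ± 3.21 CPM in KO_OC and 244 ± 2.30 CPM in flox_OC, against 294 ± 5.01 CPM in KO_BMM and 327 ± 12.8 CPM in flox_BMM. It was lower in KO_BMM (log2 fold change -0.15, SE 0.029, adjusted p = 2.72e-05) and lower with RANKL in KO cells (-0.34) and in flox cells (-0.42). The call in KO_OC (-0.07, adjusted p = 0.0413) was lost with no low-count filter or without robust estimation, and without KO_BMM replicate 1, KO_BMM replicate 3, flox_OC replicate 1, flox_OC replicate 2, flox_OC replicate 3, KO_OC replicate 1 and KO_OC replicate 3, each in turn (-0.08 to -0.07). Pltp shares 19.3% of its exonic bases with Ctsa, and without strand the reads of the pair cannot be told apart there.

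Of the 5 genes of fatty acid synthesis from citrate and its regulation, Acacb and Srebf1 were called higher in KO_OC, beside 21.4% of all genes tested. Both of these calls were lost with DESeq2. None of the 5 was called by genotype in BMM, beside 39.9% of all genes tested. Acly, which splits citrate into acetyl-CoA, averaged 249 ± 4.88 CPM in KO_OC, 255 ± 5.61 CPM in flox_OC, 245 ± 3.77 CPM in KO_BMM and 247 ± 9.84 CPM in flox_BMM. Acaca, the cytosolic acetyl-CoA carboxylase, averaged 20.9 ± 0.830 CPM in KO_OC, 19.7 ± 0.211 CPM in flox_OC, 19.3 ± 1.49 CPM in KO_BMM and 18.4 ± 0.278 CPM in flox_BMM. Neither gene was called in any comparison, though Acly passed for RANKL in flox cells without flox_BMM replicate 1 (0.08), and both genes passed in both genotypes with library size alone. A processed pseudogene matches 64.3% of the Acaca transcript, so its level is uncertain.

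Fasn, the synthase that builds palmitate, measured 210.4, 193 and 204 CPM in KO_OC and 216, 215 and 194 CPM in flox_OC, against 109, 123 and 119 CPM in KO_BMM and 129, 132 and 108 CPM in flox_BMM. Every OC library stood above every BMM library, while the genotypes overlapped in both cultures. With RANKL, Fasn rose 1.73-fold in KO cells (log2 fold change 0.79, SE 0.08, adjusted p = 1.22e-05) and 1.7-fold in flox cells (log2 fold change 0.76, SE 0.08, adjusted p = 1.43e-05). The genotype differences did not pass, with 95% intervals of -0.21 to 0.13 in OC and -0.26 to 0.12 in BMM on the log2 scale.

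Acacb, the carboxylase at the outer mitochondrial membrane, was low and limited by depth, with 0.973, 1.48 and 1.104 CPM in KO_OC against 0.632, 0.790 and 0.731 CPM in flox_OC, and 2.28, 2.07 and 1.89 CPM in KO_BMM against 1.64, 1.49 and 1.74 CPM in flox_BMM. It fell with RANKL in KO cells (log2 fold change -0.80, SE 0.21, adjusted p = 6.73e-04) and in flox cells (log2 fold change -1.17, SE 0.25, adjusted p = 4.11e-05). The higher value in KO_OC (log2 fold change 0.73, SE 0.26, adjusted p = 0.0222) was not called with DESeq2, or without flox_OC replicate 1 (0.64) or without KO_OC replicate 2 (0.54). Srebf1, the transcription factor that drives many of these synthesis genes, averaged 134 ± 2.81 CPM in KO_OC and 127 ± 2.65 CPM in flox_OC, against 133 ± 2.08 CPM in KO_BMM and 129 ± 4.30 CPM in flox_BMM. Its call in KO_OC (0.08, adjusted p = 0.0379) was lost with RLE size factors or DESeq2, and without flox_BMM replicate 2, flox_OC replicate 2, flox_OC replicate 3, KO_OC replicate 1 and KO_OC replicate 3, each in turn (0.07 to 0.09). RANKL left it uncalled in KO cells (0.02) and in flox cells (-0.03), where library size alone gave 0.14.

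Scd1 and Scd2, the desaturases that make monounsaturated fatty acids such as oleate, had the largest called drops by genotype in OC among the members. Scd2 measured 19.1, 20.5 and 19.9 CPM in KO_OC against 33.8, 32.8 and 34.2 CPM in flox_OC, and 59.3, 59.1 and 61.1 CPM in KO_BMM against 65.0, 65.8 and 60.6 CPM in flox_BMM. The KO_OC libraries lay far below the others, and the BMM genotypes overlapped. Scd2 fell 1.69-fold in KO_OC (log2 fold change -0.76, SE 0.055, adjusted p = 2.25e-16) and was not called in KO_BMM (-0.09, 95% interval -0.18 to -0.01), where it passed without flox_BMM replicate 3 (-0.12). RANKL lowered it 3.02-fold in KO cells (log2 fold change -1.59, SE 0.05, adjusted p = 1.94e-31) and 1.9-fold in flox cells (log2 fold change -0.93, SE 0.045, adjusted p = 7.57e-24), and the drop was larger in KO cells (difference -0.67, SE 0.069, adjusted p = 1.04e-10). Scd1 was much lower, with 3.48, 2.62 and 2.46 CPM in KO_OC against 5.01, 5.28 and 5.51 CPM in flox_OC, and 3.91, 4.33 and 3.58 CPM in KO_BMM against 6.18, 5.56 and 5.89 CPM in flox_BMM. All KO libraries were under all flox libraries of the same culture. Scd1 fell 1.84-fold in KO_OC (log2 fold change -0.88, SE 0.14, adjusted p = 4.36e-07) and 1.49-fold in KO_BMM (log2 fold change -0.57, SE 0.13, adjusted p = 2.07e-04). It also fell with RANKL in KO cells (log2 fold change -0.47, SE 0.15, adjusted p = 0.00406), was not called in flox cells (-0.16, 95% interval -0.39 to 0.08), and the difference of -0.31 between these effects did not pass (adjusted p = 0.259). A Scd1 transcript covers part of the 12.5% of the Scd2 transcript that has a close match, so reads there may be split or dropped.

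Fads1 and Fads2 desaturate the precursors of arachidonic and docosahexaenoic acid. Fads1 measured 219.8, 229.9 and 224 CPM in KO_OC against 191, 189.8 and 198 CPM in flox_OC, and 272, 269 and 274 CPM in KO_BMM against 297, 296 and 284 CPM in flox_BMM. The genotypes were separate in both cultures but in opposite orders. Fads1 was higher in KO_OC (log2 fold change 0.22, SE 0.03, adjusted p = 2.11e-08) and lower in KO_BMM (log2 fold change -0.11, SE 0.029, adjusted p = 0.00197). It fell with RANKL in both genotypes, with a log2 fold change of -0.27 in KO cells and -0.60 in flox cells, a difference of 0.33 (SE 0.041, adjusted p = 1.48e-08). Fads2 averaged 20.5 ± 1.19 CPM in KO_OC and 22.6 ± 0.399 CPM in flox_OC, against 31.2 ± 0.905 CPM in KO_BMM and 39.2 ± 2.81 CPM in flox_BMM. It fell in KO_BMM (log2 fold change -0.32, SE 0.053, adjusted p = 1.81e-06) and with RANKL in KO cells (-0.61) and in flox cells (-0.80). In KO_OC it did not pass (-0.14, adjusted p = 0.0664), though it did with only the 2 groups compared, and without flox_BMM replicate 1 (-0.15) or without flox_BMM replicate 3 (-0.15) or without KO_OC replicate 3 (-0.18). The difference of its RANKL effects (0.18) passed without flox_BMM replicate 3 (0.22).

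The elongases add carbon pairs to fatty acids of different kinds. Elovl6, which takes palmitate to stearate, measured 17.3, 16.2 and 16.9 CPM in KO_OC against 15.2, 15.8 and 14.0 CPM in flox_OC, and 11.3, 13.6 and 11.9 CPM in KO_BMM against 15.9, 15.4 and 15.1 CPM in flox_BMM. KO_BMM was the lowest group and KO_OC the highest, with no overlap between genotypes in either culture. Elovl6 was lower in KO_BMM (log2 fold change -0.33, SE 0.077, adjusted p = 4.35e-04), rose with RANKL in KO cells (log2 fold change 0.45, SE 0.075, adjusted p = 6.17e-07) and was not called in flox cells (-0.05, 95% interval -0.19 to 0.10). The difference of 0.50 (SE 0.1, adjusted p = 2.79e-04) was called. In KO_OC the value of 0.17 did not pass (adjusted p = 0.0556), though it did with only the 2 groups compared and without KO_BMM replicate 2 (0.17) or without flox_OC replicate 2 (0.20). A pseudogene matches 13.5% of its transcript. Elovl1, an elongase of very long saturated chains, averaged 290.2 ± 9.48 CPM in KO_OC and 304 ± 4.06 CPM in flox_OC, against 242 ± 4.63 CPM in KO_BMM and 223 ± 10.5 CPM in flox_BMM. It was higher in KO_BMM (0.11, adjusted p = 0.00261) and rose with RANKL in KO cells (0.27) and in flox cells (0.45), less so in KO cells (difference -0.18, adjusted p = 0.00153). Its KO_OC value of -0.07 was not called, but passed with only the 2 groups compared, and without flox_BMM replicate 1 (-0.07) or without flox_BMM replicate 3 (-0.07) or without KO_OC replicate 3 (-0.09). Elovl5, which lengthens polyunsaturated chains, averaged 70.8 ± 1.13 CPM in KO_OC and 77.9 ± 1.08 CPM in flox_OC, against 99.0 ± 2.41 CPM in KO_BMM and 96.1 ± 4.24 CPM in flox_BMM. It was lower in KO_OC (-0.14, adjusted p = 0.00272) and fell with RANKL in KO cells (-0.48) and in flox cells (-0.30), more so in KO cells (difference -0.18, adjusted p = 0.00864).

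Of the acyl-CoA synthetases, Acsl1 had the largest RANKL response of all 41 genes. It measured 385, 387 and 391 CPM in KO_OC against 444, 456 and 455 CPM in flox_OC, and 82.4, 83.2 and 85.6 CPM in KO_BMM against 104, 106 and 107 CPM in flox_BMM. The 4 groups were fully separate. RANKL raised Acsl1 4.63-fold in KO cells (log2 fold change 2.21, SE 0.03, adjusted p = 3.07e-46) and 4.28-fold in flox cells (log2 fold change 2.10, SE 0.03, adjusted p = 4.66e-46), and the difference of 0.11 did not pass (adjusted p = 0.052, 95% interval 0.03 to 0.20). KO cells had less of it in OC (log2 fold change -0.22, SE 0.026, adjusted p = 1.34e-09) and in BMM (log2 fold change -0.33, SE 0.033, adjusted p = 9.68e-12). Acsl3, the synthetase of the endoplasmic reticulum and of young droplets, went the opposite way with RANKL. It measured 15.8, 15.8 and 17.3 CPM in KO_OC and 14.5, 15.0 and 16.2 CPM in flox_OC, against 30.9, 29.3 and 30.1 CPM in KO_BMM and 28.1, 33.0 and 33.8 CPM in flox_BMM. Every OC library was below every BMM library, and the genotypes overlapped. Acsl3 fell 1.85-fold in KO cells (log2 fold change -0.88, SE 0.065, adjusted p = 7.65e-17) and 2.08-fold in flox cells (log2 fold change -1.06, SE 0.066, adjusted p = 1.17e-19). Its genotype value in BMM (-0.07) passed without flox_BMM replicate 1 (-0.14). The difference of its RANKL effects (0.17) passed without flox_BMM replicate 1 (0.23).

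Acsl4, which prefers arachidonate, averaged 124 ± 3.07 CPM in KO_OC and 139 ± 4.15 CPM in flox_OC, against 114 ± 1.26 CPM in KO_BMM and 131 ± 7.37 CPM in flox_BMM. It was lower in KO_OC (log2 fold change -0.17, SE 0.035, adjusted p = 6.94e-05) and in KO_BMM (log2 fold change -0.20, SE 0.036, adjusted p = 1.18e-05), and higher with RANKL in KO cells (0.12, adjusted p = 0.00305). In flox cells the RANKL call (0.09, adjusted p = 0.0156), where the groups overlap, was lost with no low-count filter, or without flox_BMM replicate 2 (0.05) or without flox_OC replicate 2 (0.07). Acsl5 measured 232, 228 and 242 CPM in KO_OC against 197, 202 and 199 CPM in flox_OC, and 239, 229 and 228 CPM in KO_BMM against 199, 197 and 203 CPM in flox_BMM. KO libraries were above flox libraries in both cultures, and the cultures overlapped within each genotype. Acsl5 was higher in KO_OC (log2 fold change 0.23, SE 0.03, adjusted p = 6.06e-09) and in KO_BMM (log2 fold change 0.22, SE 0.03, adjusted p = 3.85e-08). With RANKL it was not called in KO cells (0.01) or in flox cells (-0.00), and library size alone gave 0.15 and 0.17, both called.

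In triglyceride synthesis, the lipins remove the phosphate from phosphatidate. Lpin2 measured 49.2, 47.3 and 47.3 CPM in KO_OC against 61.1, 66.3 and 63.5 CPM in flox_OC, and 109, 110.4 and 115 CPM in KO_BMM against 159, 149 and 159.7 CPM in flox_BMM. No 2 groups overlapped. Lpin2 was 1.33-fold lower in KO_OC (log2 fold change -0.41, SE 0.043, adjusted p = 3.99e-11) and 1.4-fold lower in KO_BMM (log2 fold change -0.48, SE 0.035, adjusted p = 2.74e-16). RANKL lowered it 2.33-fold in KO cells (log2 fold change -1.22, SE 0.04, adjusted p = 1.48e-30) and 2.45-fold in flox cells (log2 fold change -1.29, SE 0.037, adjusted p = 3.71e-33). Lpin1 measured 7.17, 6.43 and 7.37 CPM in KO_OC and 6.05, 7.70 and 6.97 CPM in flox_OC, against 14.1, 13.5 and 14.5 CPM in KO_BMM and 15.1, 14.5 and 16.6 CPM in flox_BMM. It fell with RANKL in KO cells (log2 fold change -1.01, SE 0.09, adjusted p = 4.81e-14) and in flox cells (log2 fold change -1.16, SE 0.089, adjusted p = 2.20e-16), while the genotypes overlapped and were not called in either culture.

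Dgat2 and Dgat1 join the last fatty acid to diglyceride. Dgat2 was low, with 2.97, 2.87 and 3.01 CPM in KO_OC against 3.74, 4.05 and 3.41 CPM in flox_OC, and 1.47, 1.49 and 1.65 CPM in KO_BMM against 1.53, 1.24 and 1.23 CPM in flox_BMM. Every OC library stood above every BMM library. It rose 1.91-fold with RANKL in KO cells (log2 fold change 0.94, SE 0.17, adjusted p = 5.68e-06) and 2.8-fold in flox cells (log2 fold change 1.48, SE 0.17, adjusted p = 1.33e-10), and the difference of -0.55 did not pass (adjusted p = 0.131). The lower value in KO_OC (-0.34, adjusted p = 0.0483) was lost with library size alone, DESeq2 or no low-count filter, and without KO_BMM replicate 1, KO_BMM replicate 2, KO_BMM replicate 3, flox_OC replicate 1, flox_OC replicate 2, KO_OC replicate 1, KO_OC replicate 2 and KO_OC replicate 3, each in turn (-0.35 to -0.28). Dgat1 averaged 13.0 ± 1.197 CPM in KO_OC and 13.8 ± 1.19 CPM in flox_OC, against 17.4 ± 0.931 CPM in KO_BMM and 15.4 ± 0.791 CPM in flox_BMM. It fell with RANKL in KO cells (log2 fold change -0.42, SE 0.076, adjusted p = 4.19e-06). The flox value of -0.16 was not called, but passed with no low-count filter, and without flox_BMM replicate 1, KO_BMM replicate 2, KO_BMM replicate 3, flox_OC replicate 1, flox_OC replicate 2, KO_OC replicate 1 and KO_OC replicate 2, each in turn (-0.21 to -0.17). The KO_BMM value of 0.17 passed with library size alone and without flox_BMM replicate 3 (0.21), and the difference of RANKL effects (-0.25) without flox_OC replicate 3 (-0.32) or without KO_OC replicate 2 (-0.33).

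Gpam, the mitochondrial acyltransferase at the entry to glycerolipid synthesis, averaged 20.1 ± 0.754 CPM in KO_OC and 17.9 ± 1.05 CPM in flox_OC, against 18.2 ± 0.673 CPM in KO_BMM and 16.2 ± 0.647 CPM in flox_BMM. All 3 of its calls were marginal. In OC (0.17, adjusted p = 0.0285) the call was lost with DESeq2, and without flox_OC replicate 1, flox_OC replicate 3, KO_OC replicate 1 and KO_OC replicate 3, each in turn (0.13 to 0.17). In BMM (0.17, adjusted p = 0.0492) it was lost with RLE size factors, DESeq2, no low-count filter or only the 2 groups compared, and without flox_BMM replicate 2, flox_BMM replicate 3, KO_BMM replicate 1, KO_BMM replicate 3, flox_OC replicate 1, KO_OC replicate 1, KO_OC replicate 2 and KO_OC replicate 3, each in turn (0.14 to 0.19). For RANKL in KO cells (0.14, adjusted p = 0.042) it was lost with DESeq2 or no low-count filter, and without flox_BMM replicate 1, flox_BMM replicate 2, flox_BMM replicate 3, KO_BMM replicate 2, KO_BMM replicate 3, flox_OC replicate 1, KO_OC replicate 1 and KO_OC replicate 3, each in turn (0.11 to 0.14). In flox cells the RANKL value of 0.14 was not called, but passed with library size alone and without flox_OC replicate 3 (0.18).

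Plin2, the coat protein found on droplets of most cells, is often read as a sign of stored lipid. It measured 362, 350.2 and 349 CPM in KO_OC against 366, 358 and 365 CPM in flox_OC, and 475, 471 and 486 CPM in KO_BMM against 712, 633 and 570.0 CPM in flox_BMM. The OC genotypes overlapped, and the 3 flox_BMM libraries lay above all others and were widely spread. Plin2 fell 1.34-fold in KO_BMM (log2 fold change -0.42, SE 0.065, adjusted p = 5.43e-04) and was not called in KO_OC (-0.04, 95% interval -0.19 to 0.11). RANKL lowered it 1.35-fold in KO cells (log2 fold change -0.43, SE 0.066, adjusted p = 2.03e-04) and 1.76-fold in flox cells (log2 fold change -0.81, SE 0.065, adjusted p = 1.20e-06), less in KO cells (difference 0.38, SE 0.093, adjusted p = 0.0159). A pseudogene matches 13.7% of its transcript. Plin3, a coat protein that moves between cytosol and droplets, averaged 80.7 ± 3.91 CPM in KO_OC and 69.7 ± 0.550 CPM in flox_OC, against 121 ± 1.93 CPM in KO_BMM and 102 ± 1.98 CPM in flox_BMM. It was higher in KO_OC (log2 fold change 0.21, SE 0.038, adjusted p = 8.75e-06) and in KO_BMM (log2 fold change 0.24, SE 0.035, adjusted p = 9.26e-08), and fell with RANKL by a similar log2 amount in KO cells (-0.59) and in flox cells (-0.55), with a 95% interval of -0.14 to 0.07 for the difference. Hilpda, a droplet protein that inhibits the lipase Pnpla2, measured 6.86, 5.79 and 6.42 CPM in KO_OC against 8.17, 8.39 and 8.96 CPM in flox_OC, and 3.91, 4.38 and 4.02 CPM in KO_BMM against 4.71, 4.58 and 4.88 CPM in flox_BMM. It rose with RANKL in KO cells (log2 fold change 0.63, SE 0.12, adjusted p = 4.61e-06) and in flox cells (log2 fold change 0.85, SE 0.11, adjusted p = 8.29e-10). It was lower in KO_OC (log2 fold change -0.42, SE 0.097, adjusted p = 3.89e-04) and not called in KO_BMM (-0.20).

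Of the 4 lipolysis genes, Lipa, the acid lipase that frees fatty acids from lipoprotein lipid in lysosomes, was the most abundant per kilobase in every group. It measured 1411, 1401 and 1426 CPM in KO_OC against 1200.1, 1222 and 1224 CPM in flox_OC, and 1995, 1990.4 and 1992 CPM in KO_BMM against 2196, 2220.0 and 2284 CPM in flox_BMM. As for Fads1, KO libraries lay above flox libraries with RANKL and below them without it. Lipa was higher in KO_OC (log2 fold change 0.22, SE 0.025, adjusted p = 3.51e-10) and lower in KO_BMM (log2 fold change -0.16, SE 0.024, adjusted p = 2.36e-07). It fell with RANKL in both genotypes, with a log2 fold change of -0.50 in KO cells and -0.88 in flox cells, a difference of 0.38 (SE 0.035, adjusted p = 3.56e-12).

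Pnpla2, the lipase that takes the first fatty acid off droplet triglyceride, averaged 93.5 ± 2.33 CPM in KO_OC and 98.1 ± 0.309 CPM in flox_OC, against 86.3 ± 1.31 CPM in KO_BMM and 91.6 ± 3.31 CPM in flox_BMM. It rose slightly with RANKL in KO cells (0.11, adjusted p = 0.00404). The flox call (0.10, adjusted p = 0.0108) was lost with no low-count filter, or without flox_BMM replicate 1 (0.08). By genotype it was not called, though it passed in OC with only the 2 groups compared and in BMM without flox_BMM replicate 1 (-0.11). Lipe, the hormone-sensitive lipase, averaged 20.7 ± 0.648 CPM in KO_OC, 22.4 ± 0.529 CPM in flox_OC, 22.5 ± 1.47 CPM in KO_BMM and 24.1 ± 1.77 CPM in flox_BMM. It was called in none of the 5 comparisons, although its RANKL value passed in KO cells without flox_BMM replicate 1 (-0.13) or without KO_BMM replicate 1 (-0.17), and in flox cells without flox_BMM replicate 1 (-0.16). An antisense transcript overlaps 5.84% of its exonic bases.

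Mgll, which cleaves the last fatty acid from monoglyceride, was barely detected at 0.615, 0.346 and 0.451 CPM in KO_OC against 0.271, 0.889 and 0.828 CPM in flox_OC, and 0.380, 0.433 and 0.775 CPM in KO_BMM against 1.47, 0.618 and 1.18 CPM in flox_BMM. The genotypes overlapped in both cultures. Its call in KO_BMM (log2 fold change -1.0, SE 0.36, adjusted p = 0.026) was lost with DESeq2, and without flox_BMM replicate 1, flox_BMM replicate 3, KO_BMM replicate 1 and KO_BMM replicate 2, each in turn (-0.93 to -0.71). The uncalled RANKL value in flox cells (-0.72) passed with no low-count filter, and without flox_BMM replicate 2 (-1.02) or without flox_OC replicate 2 (-0.99) or without flox_OC replicate 3 (-0.92).

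Cpt1a, the outer-membrane carnitine acyltransferase that controls entry of fatty acids into mitochondria, measured 178, 177 and 178 CPM in KO_OC against 150.4, 153 and 155 CPM in flox_OC, and 244, 244 and 244 CPM in KO_BMM against 269, 253 and 239.8 CPM in flox_BMM. KO_OC libraries lay above flox_OC libraries, while the BMM genotypes overlapped. Cpt1a was 1.16-fold higher in KO_OC (log2 fold change 0.22, SE 0.033, adjusted p = 2.20e-07) and not called in KO_BMM (-0.06), where it passed without flox_BMM replicate 3 (-0.09). RANKL lowered it in both genotypes, with a log2 fold change of -0.46 in KO cells and -0.73 in flox cells, a difference of 0.28 (SE 0.045, adjusted p = 3.87e-06). Cpt2, the inner-membrane partner, averaged 32.6 ± 1.85 CPM in KO_OC and 29.2 ± 1.42 CPM in flox_OC, against 33.2 ± 0.844 CPM in KO_BMM and 27.2 ± 0.536 CPM in flox_BMM. It was higher in KO_BMM (log2 fold change 0.28, SE 0.055, adjusted p = 3.28e-05). The OC call (0.16, adjusted p = 0.0127) was lost with DESeq2, or without flox_OC replicate 3 (0.12) or without KO_OC replicate 1 (0.14) or without KO_OC replicate 2 (0.14). RANKL left Cpt2 uncalled in KO cells (-0.02) and in flox cells (0.10), where it passed with library size alone and without flox_OC replicate 3 (0.13).

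Acadl, the long-chain acyl-CoA dehydrogenase, had the largest genotype rise of the oxidation genes. It measured 62.3, 63.1 and 60.7 CPM in KO_OC against 46.7, 47.3 and 48.8 CPM in flox_OC, and 95.02, 91.1 and 93.1 CPM in KO_BMM against 73.4, 71.3 and 74.8 CPM in flox_BMM. All 4 groups were separate, with KO above flox and BMM above OC. Acadl was 1.3-fold higher in KO_OC (log2 fold change 0.38, SE 0.041, adjusted p = 5.00e-11) and 1.27-fold higher in KO_BMM (log2 fold change 0.35, SE 0.037, adjusted p = 4.57e-11). RANKL lowered it in KO cells (-0.58) and in flox cells (-0.62), and the difference of 0.04 did not pass (95% interval -0.08 to 0.15). Neither of the other acyl-CoA dehydrogenases was called by genotype. Acadm, for medium chains, averaged 81.0 ± 1.22 CPM in KO_OC and 77.5 ± 1.90 CPM in flox_OC, against 74.1 ± 0.920 CPM in KO_BMM and 77.9 ± 4.04 CPM in flox_BMM, and was called only for its rise with RANKL in KO cells (0.13, adjusted p = 0.0025). Its difference of RANKL effects (0.14) passed without flox_BMM replicate 2 (0.16), and its flox RANKL value of -0.01 was 0.16 with library size alone. Acadvl, for very long chains, averaged 26.6 ± 0.650 CPM in KO_OC and 27.5 ± 1.27 CPM in flox_OC, against 23.7 ± 1.24 CPM in KO_BMM and 25.2 ± 0.627 CPM in flox_BMM. Its rise with RANKL in KO cells (0.17, adjusted p = 0.00954) was lost without KO_BMM replicate 2 (0.12) or without KO_OC replicate 1 (0.14). The rise in flox cells (0.12, adjusted p = 0.0455) was lost with DESeq2 or no low-count filter, and without flox_BMM replicate 2, flox_BMM replicate 3, KO_BMM replicate 1, KO_BMM replicate 2, KO_BMM replicate 3, flox_OC replicate 3, KO_OC replicate 1, KO_OC replicate 2 and KO_OC replicate 3, each in turn (0.08 to 0.12). Acadvl shares 42.9% of its exonic bases with Dvl2, so its level is uncertain.

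Hadha and Hadhb encode the subunits of the mitochondrial trifunctional protein and start head to head on chromosome 5. Hadha averaged 192 ± 4.34 CPM in KO_OC and 178 ± 2.51 CPM in flox_OC, against 208 ± 3.27 CPM in KO_BMM and 195 ± 1.17 CPM in flox_BMM. It was higher in KO_OC (log2 fold change 0.11, SE 0.029, adjusted p = 0.00195) and in KO_BMM (log2 fold change 0.10, SE 0.029, adjusted p = 0.00602). RANKL lowered it in KO cells (-0.11, adjusted p = 6.17e-04) and in flox cells (-0.13, adjusted p = 1.82e-04), but with library size alone these values turned to 0.02 and 0.04. Hadhb was called in no comparison and averaged 8.60 ± 0.837 CPM in KO_OC and 8.66 ± 0.955 CPM in flox_OC, against 8.25 ± 0.274 CPM in KO_BMM and 7.98 ± 0.329 CPM in flox_BMM. Its RANKL value in flox cells (0.12) passed with library size alone. Per kilobase, Hadhb reached 1.30 ± 0.127 CPM per kb in KO_OC beside 36.0 ± 0.813 CPM per kb for Hadha, but processed pseudogenes match 69.7% of the Hadhb transcript and its level is uncertain. Ech1, an isomerase for unsaturated fatty acids, averaged 56.2 ± 2.61 CPM in KO_OC and 52.3 ± 1.76 CPM in flox_OC, against 63.4 ± 1.65 CPM in KO_BMM and 56.6 ± 4.37 CPM in flox_BMM. It was higher in KO_BMM (0.16, adjusted p = 0.00307), a call lost without flox_BMM replicate 2 (0.11). In KO_OC the value of 0.11 was not called, but passed with no low-count filter or only the 2 groups compared, and without flox_BMM replicate 1 (0.10) or without flox_OC replicate 3 (0.13) or without KO_OC replicate 1 (0.14). It fell with RANKL in KO cells (-0.17, adjusted p = 7.79e-04), a call lost with library size alone (-0.04). The fall in flox cells (-0.11, adjusted p = 0.0274) was lost with library size alone, DESeq2 or only the 2 groups compared, or without flox_BMM replicate 1 (-0.05) or without flox_OC replicate 1 (-0.12) or without flox_OC replicate 2 (-0.09), and with library size alone the value turned to 0.06.

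**Figure D3:**
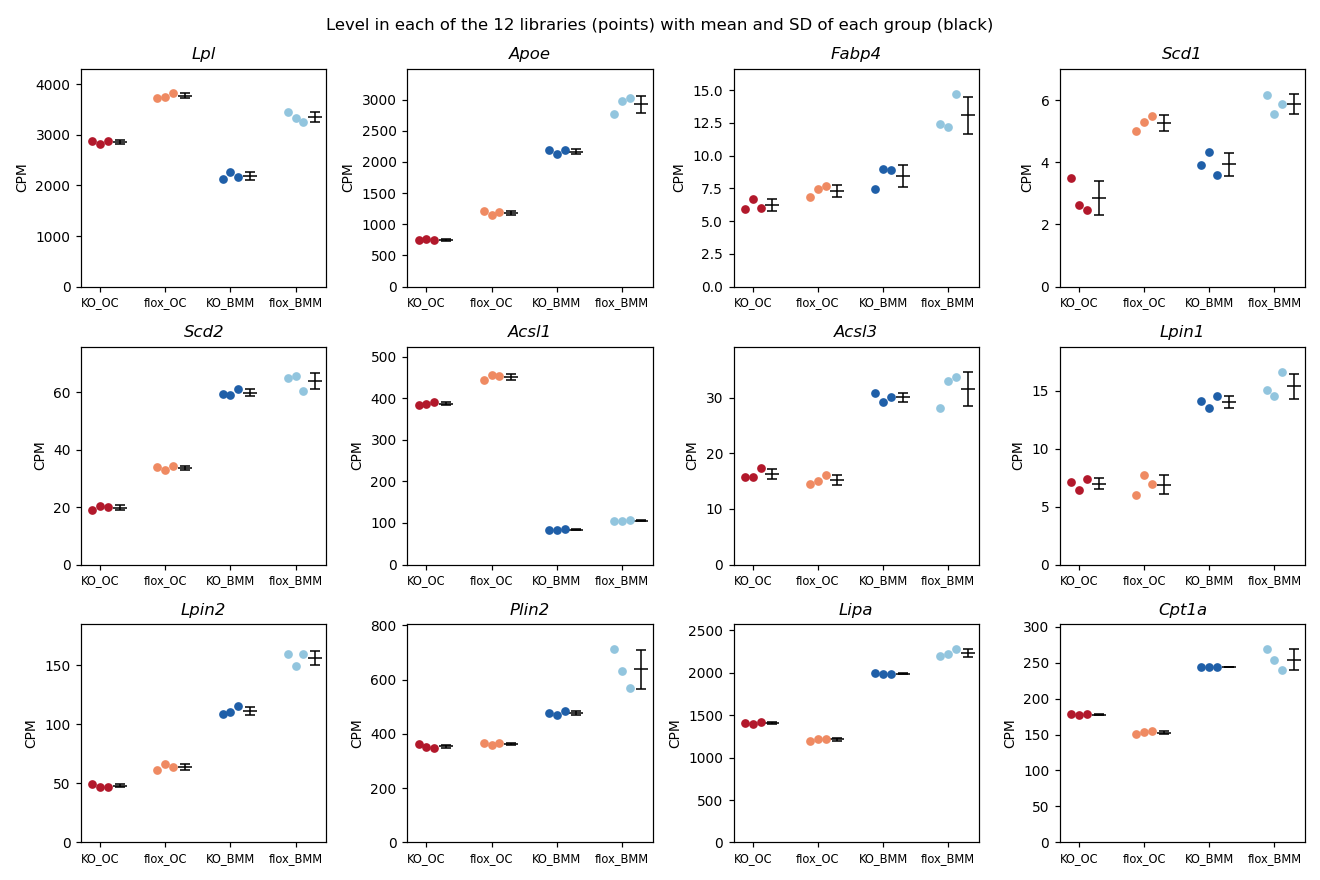
Level of 12 genes in CPM in each of the 12 libraries, with the 3 libraries of a group as points and the mean with its SD in black beside them. Lpl, Scd1 and Acsl1 sit lower in KO than in flox in both cultures, Lipa changes order between cultures, and Acsl1 runs from 82.4 to 107 CPM in BMM and from 385 to 456 CPM in OC.

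The RANKL effect itself was compared between genotypes. For 11 of the 41 genes the difference passed, 26.8% of the members beside 21.9% of all genes tested (12.3% higher and 9.53% lower). The effect was higher in KO cells for Elovl6, Fabp4, Plin2, Lipa, Fads1, Cpt1a and Lpl, and lower for Scd2, Apoe, Elovl1 and Elovl5. Of the 7 higher differences, Fabp4, Plin2, Lipa, Fads1 and Cpt1a belong to genes that fell with RANKL in both genotypes and fell less in KO cells, Lpl rose more in KO cells, and Elovl6 rose in KO cells with no call in flox cells. Scd2, Apoe and Elovl5 fell further in KO cells, and Elovl1 rose less. Over all genes tested, 1607 differences were higher and 1242 lower in KO cells, a split that turned to 1312 and 1716 with library size alone. The osteoclast markers also responded differently, with 4 of the 8 that were tested rising less in KO cells, as did the macrophage markers, of which 6 of 8 had a higher RANKL effect in KO cells and 1 a lower one, and the part of this in the members' differences was not tested.

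**Figure D4:**
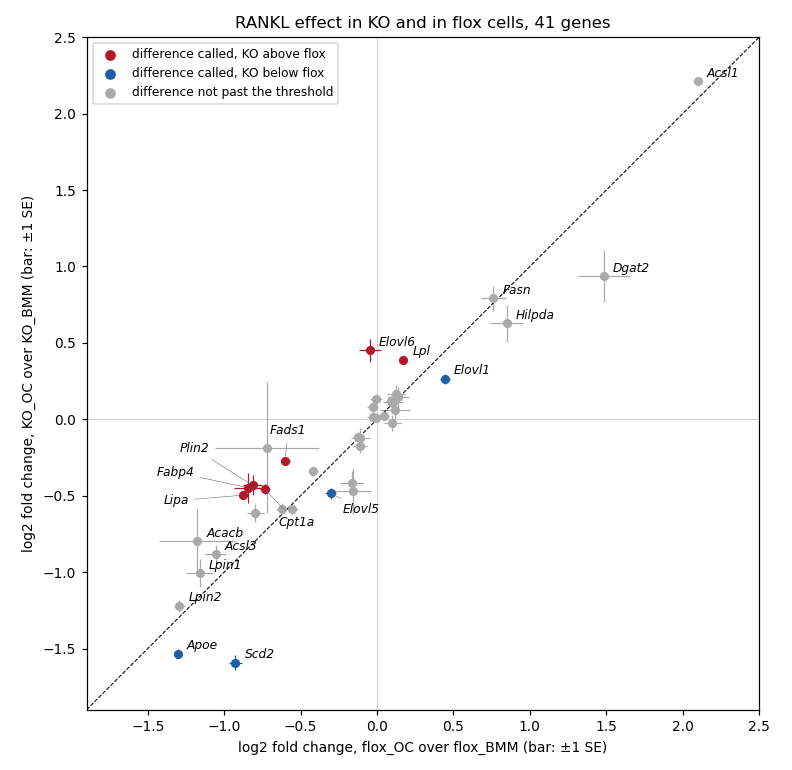
log2 fold change with RANKL of each of the 41 genes, KO_OC over KO_BMM on the vertical axis and flox_OC over flox_BMM on the horizontal axis, with bars of ±1 SE and a dashed line of equality. Red and blue points are genes whose 2 effects differ at an adjusted p under 0.05. Acsl1 lies highest at 2.21 in KO cells and 2.10 in flox cells, and Scd2 and Apoe lie below the line.

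Beyond the 41 genes, a list of 80 other genes of the same pathways had 63 that could be tested. In KO_OC, 18 were higher and 12 lower than in flox_OC, 47.6% of those tested beside 41.3% of all genes tested. In KO_BMM 13 were higher and 20 lower than in flox_BMM, 52.4% beside 39.9%. The 23 oxidation genes among them had 10 higher and 2 lower in KO_OC, and 7 higher and 4 lower in KO_BMM. Of all genes tested, 21.4% were higher and 19.9% lower in KO_OC, and 19.3% higher and 20.6% lower in KO_BMM. The 5 uptake genes among them were mixed. In KO_OC 1 was higher (log2 fold change 1.5, with a mean under 5 CPM in both OC groups) and 1 lower. In KO_BMM 1 was higher and 2 lower. With RANKL, 14 were higher and 40 lower in KO cells, 85.7% of those tested beside 70.5% of all genes. In flox cells 14 were higher and 42 lower, 88.9% beside 74.8%. The median log2 fold change with RANKL was -0.27 in KO cells and -0.34 in flox cells, further below 0 than that of the 41. Cd36, the surface transporter that takes up fatty acids and oxidized lipoprotein, measured 396, 396 and 408 CPM in KO_OC against 578, 592 and 610.1 CPM in flox_OC, and 1233, 1225 and 1182 CPM in KO_BMM against 1991, 1843 and 1896 CPM in flox_BMM. The 4 groups were separate, in the same order as for Apoe. Cd36 was lower in KO_OC (log2 fold change -0.57, SE 0.029, adjusted p = 6.50e-22) and in KO_BMM (log2 fold change -0.65, SE 0.028, adjusted p = 8.34e-25), and fell with RANKL in both genotypes, with a log2 fold change of -1.60 in KO cells and -1.69 in flox cells.

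Abcd2, a peroxisomal importer of very long acyl-CoA, averaged 3.47 ± 0.567 CPM in KO_OC and 4.64 ± 0.132 CPM in flox_OC, against 26.1 ± 1.98 CPM in KO_BMM and 42.3 ± 3.75 CPM in flox_BMM. It fell 7.51-fold with RANKL in KO cells and 9.12-fold in flox cells, and was lower in KO_BMM (log2 fold change -0.70, SE 0.061, adjusted p = 3.51e-13). Acox3, a peroxisomal oxidase, was higher in KO_OC (log2 fold change 0.59, SE 0.041, adjusted p = 2.91e-17), and its RANKL effect was higher in KO cells by 0.42 (adjusted p = 1.38e-08). Hacd2, a dehydratase of the elongation cycle, was higher in KO_OC (0.44, adjusted p = 6.81e-09), and the desaturase-like Fads3 lower (-0.38, adjusted p = 0.00676). Echs1 and Acads, of mitochondrial oxidation, were higher in KO_BMM (0.33 and 0.25). For Hsd17b4, of peroxisomal oxidation, the RANKL effect was higher in KO cells by 0.30. It was lower in KO cells for Echs1 and for the droplet protein Aup1, with differences of -0.29 and -0.16. Angptl4, a secreted inhibitor of lipoprotein lipase, averaged 6.26 ± 0.562 CPM in KO_OC and 5.42 ± 0.505 CPM in flox_OC, against 2.24 ± 0.481 CPM in KO_BMM and 2.19 ± 0.552 CPM in flox_BMM, and rose with RANKL in KO cells (log2 fold change 1.47, SE 0.15, adjusted p = 2.13e-12) and in flox cells (log2 fold change 1.31, SE 0.16, adjusted p = 2.20e-10). Agpat5, an acyltransferase of glycerolipid synthesis, rose with RANKL as well, by 0.79 in KO cells and 0.90 in flox cells.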

How the data were processed

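The authors deposited raw counts of reads per gene for each of the 12 libraries, with no normalization. RNA was extracted with a column kit, treated with DNase and oligo-dT selected, per the labels' protocols. Alignment to GRCm38 used STAR 2.0.4b, per the submitters' processing notes, and reads were counted with featureCounts 1.4.5-p1 over exons of Ensembl release 76 with strand setting 0, per the file headers. Reads of overlapping genes on opposite strands cannot be told apart, and the treatment of reads with several alignments is not given in the sources used here. Gene symbols came from GENCODE M21 (40254 of 41388 identifiers; the other 1134 held 0.136% of counts).

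Counts were tested with edgeR 4.0.16 (R 4.3.3): TMM factors, the default filter on low counts, robust quasi-likelihood fits with 4 group means over all 12 libraries, and Benjamini-Hochberg adjustment over 13030 genes, with an adjusted p under 0.05 called. The SE was taken as the size of the log2 fold change divided by the root of the F statistic, and 95% intervals use it with a t distribution on the degrees of freedom of the test. The biological coefficient of variation was 2.54%. Replicates of a group differed by more than counting noise, so all were kept. Chi-square per degree of freedom was 2.88 to 5.43 between flox_BMM libraries and 1.25 to 2.1 within the other groups. Deviations of same-numbered libraries correlated at -0.046 to 0.053. No pairing by replicate number was seen, but this check cannot exclude that such libraries share a mouse or a day. A count of 0 in 1 library allows up to 3 counts, or 0.139 to 0.162 CPM, which covers counting error only. Close copies were sought with blastn 2.17.0 (identity of at least 95%) among GENCODE M21 transcripts.

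The 41 genes, the other lists and the tests were chosen with earlier results of these data known. Values of every library were due for members that reached 5 CPM in the higher group with a called absolute log2 fold change of at least 0.5 by genotype or between RANKL effects, or of at least 1 with RANKL (Fabp4, Lpl, Apoe, Scd1, Scd2, Acsl1, Acsl3, Lpin1 and Lpin2). Per-library values of Fasn, Acacb, Fads1, Elovl6, Acsl5, Dgat2, Plin2, Hilpda, Lipa, Mgll, Cpt1a and Acadl, and the printed promoters, were chosen after values were seen. Of the other pathway genes, the 2 highest and 2 lowest called per comparison with at least 5 CPM are named. Alternatives were DESeq2 1.42.0, other scalings, no filter, no robust estimation, a minimum fold change of 1.2, a replicate block, only the groups compared, and each library left out.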

Additional observations from a re-analysis of the deposited data

Results flagged for a closer look

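The difference between the RANKL effects in KO and in flox cells passed the threshold for 11 of the 41 genes, by edgeR's quasi-likelihood test of that difference. Passing is what singles these results out. The 11 are 26.8% of the members, beside 21.9% of all genes tested that passed. On the log2 scale the difference was 0.50 for Elovl6, 0.39 for Fabp4, 0.38 for Plin2, 0.38 for Lipa, 0.33 for Fads1, 0.28 for Cpt1a and 0.22 for Lpl, each higher in KO cells. It was -0.67 for Scd2, -0.23 for Apoe, -0.18 for Elovl1 and -0.18 for Elovl5, each lower in KO cells. Lipa and Fads1 were also called in opposite directions by genotype, higher in KO_OC and lower in KO_BMM, as were 2.41% of all genes tested in either order. The value for Fabp4 is the least settled of the 11, since leaving out any one of 6 libraries ended its call. Groups of 3 libraries are too small to look for a single outlying library.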

How the results depend on the processing

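Results were recomputed under 20 alternatives, of which 12 leave out 1 library. The difference of RANKL effects has no value with only the 2 groups compared, and that of Mgll also has no adjusted p from DESeq2. With only the 2 groups compared, a RANKL value in KO cells is missing as well. Of 116 called pairs of a member and a comparison, 58 were called in every alternative that gave them a value (20 alternatives for 56 pairs and 19 for 2), and 58 were lost in at least 1. Of 89 uncalled pairs, 27 were called in at least 1. A minimum fold change of 1.2 left 1 member higher and 7 lower in KO_BMM (1534 of all genes called), 1 higher and 5 lower in KO_OC (1482), 6 higher with RANKL in KO cells (5536), 5 higher with RANKL in flox cells, and 1 higher and 1 lower for the difference of RANKL effects (504); that alternative asks for a larger change by construction. DESeq2 called 7 members higher in KO_OC, and library size alone called 18 higher with RANKL in flox cells. Library size alone also turned the sign of the RANKL effect in flox cells for Fabp5 (0.139), Srebf1 (0.14), Acsl5 (0.165), Acadm (0.162), Hadha (0.043) and Ech1 (0.055), and in KO cells for Hadha (0.022); the scaling shifts all genes in that direction.

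Leaving out single libraries gave 9 to 12 members higher, 9 to 13 lower and 4704 to 5749 genes called in KO_OC, and 6 to 8, 14 to 16 and 4515 to 5190 in KO_BMM. For RANKL it gave 10 to 12, 20 to 21 and 8745 to 9368 in KO cells, and 7 to 10, 18 to 19 and 9378 to 9810 in flox cells. For the difference of RANKL effects it gave 6 to 8, 4 to 5 and 2447 to 3289. No pairing by replicate number was seen, which does not exclude one. With a replicate block 10 rather than 11 members were lower in KO_OC, the lost call being Dgat2 (-0.339), and no other call of a member changed. Genes at about 1 CPM, Mgll and Acacb, are limited by depth.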
